A study of Mus musculus with 4 samples.

Results

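The 10 genes described here encode mitotic kinases (Plk1, Aurka, Aurkb, Bub1 and Ttk), spindle checkpoint and anaphase proteins (Bub1b and Cdc20), the passenger protein survivin (Birc5) and subunits of the outer kinetochore (Ndc80 and Nuf2). They were chosen by name, with earlier results of these data known. All 10 had values in every library of the deposited table of 9796 genes, of which 9244 had library values. RNA was sequenced from long-term haematopoietic stem cells (HSCs) of C57BL/6 mice aged 8 to 12 weeks, sorted as LSK CD34- Flk2- marrow cells. The groups were 2 wild-type (WT) libraries and 2 libraries from cells labelled Sin3B KO, and both groups share strain, age and sort gate. Sin3B is a corepressor that assembles histone deacetylases on chromatin. The allele, the means of deletion and the number of mice behind each library are not stated in the labels, so the tests measure the spread between libraries, which may be technical.

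During mitosis the chromosomes attach to spindle microtubules through kinetochores, large protein assemblies built on the centromere. The NDC80 complex forms the microtubule contact. Ttk (also called Mps1), Bub1 and Bub1b signal from kinetochores that are not yet attached and hold back Cdc20, the activator of the anaphase-promoting complex (APC/C), a ubiquitin ligase that triggers chromosome separation. Aurora B, with survivin in the chromosomal passenger complex, releases wrong attachments, while Aurora A and Plk1 drive centrosome maturation and entry into mitosis. Most long-term HSCs rest outside the cell cycle, and RNA of these genes accumulates in cells that approach mitosis. In bulk samples, fewer cycling cells and less RNA per cell cannot be told apart.

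Many mitotic genes are repressed in resting cells through the CHR element (cell cycle genes homology region), letters TTTGAA or TTCGAA, which binds the MuvB core of the DREAM complex, and they often carry CCAAT boxes, letters CCAAT, bound by the activator NF-Y. Promoters, taken as 250 bases before to 50 after a RefSeq start (build GRCm38.p6, not the mm9 build of the submitters), were matched by symbol for 9 of the 10 genes, all but Aurkb. Both motifs were searched on both strands. The CHR stretches are shown because most of these promoters held one. Each is a stretch of 30 bases in gene orientation, with the CHR in capitals, read as TTCAAA where it lies on the opposite strand, and with positions counted from 1 at the first base of the start:
Plk1, chr7:122159453-122159482, plus strand: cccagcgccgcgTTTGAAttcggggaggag
Aurka, chr2:172370521-172370550, minus strand: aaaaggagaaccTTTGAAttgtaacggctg
Bub1, chr2:127831828-127831857, minus strand: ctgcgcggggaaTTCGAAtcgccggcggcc
Bub1b, chr2:118598231-118598260, plus strand: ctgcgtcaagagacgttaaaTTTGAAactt
Ttk, chr9:83834684-83834713, plus strand: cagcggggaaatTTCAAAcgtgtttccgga
Ndc80, chr17:71526811-71526840, minus strand: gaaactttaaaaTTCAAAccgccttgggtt

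The seventh promoter with the element is that of Cdc20, where the CHR lies before the start, between CCAAT boxes. The last 100 bases before the start are shown for Cdc20 and for the kinases Plk1 and Aurka, with CHR and CCAAT letters in capitals:
Cdc20, chr4:118437344-118437443, minus strand: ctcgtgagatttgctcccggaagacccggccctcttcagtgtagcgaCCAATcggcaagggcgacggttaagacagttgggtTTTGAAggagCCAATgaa
Plk1, chr7:122159335-122159434, plus strand: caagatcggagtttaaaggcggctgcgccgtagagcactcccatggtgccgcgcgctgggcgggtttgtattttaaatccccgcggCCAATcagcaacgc
Aurka, chr2:172370571-172370670, minus strand: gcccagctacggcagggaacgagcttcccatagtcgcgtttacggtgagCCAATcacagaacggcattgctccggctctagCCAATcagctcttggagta

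A CHR was found in 7 of the 9 promoters, and in 19.2% of the 32851 promoters of the reference table and 13.8% of the 9059 promoters that matched a tested gene by symbol. A CCAAT box was found in 6 of the 9, against 37.4% of all promoters. In the promoters of the other spindle, kinetochore and APC/C genes listed further on, 87 promoters of 73 genes, a CHR was found in 34 (39.1%) and a CCAAT box in 51.7%. In Plk1, Aurka, Bub1, Bub1b, Ttk and Ndc80 a CHR began between positions 8 and 41, just inside the transcript, and in Cdc20 at position -18. Bub1b held another CHR at position -188. The letters of either motif were not found in these windows of Birc5 and Nuf2, and Ndc80 held a CHR and no CCAAT box. The 1146 other tested genes with a CHR in a promoter had a median log2 fold change of 0.09 between Sin3B KO and WT, and the 5924 without one 0.02. A match of letters is a description of the sequence and was not tested for binding.

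**Figure D1:**
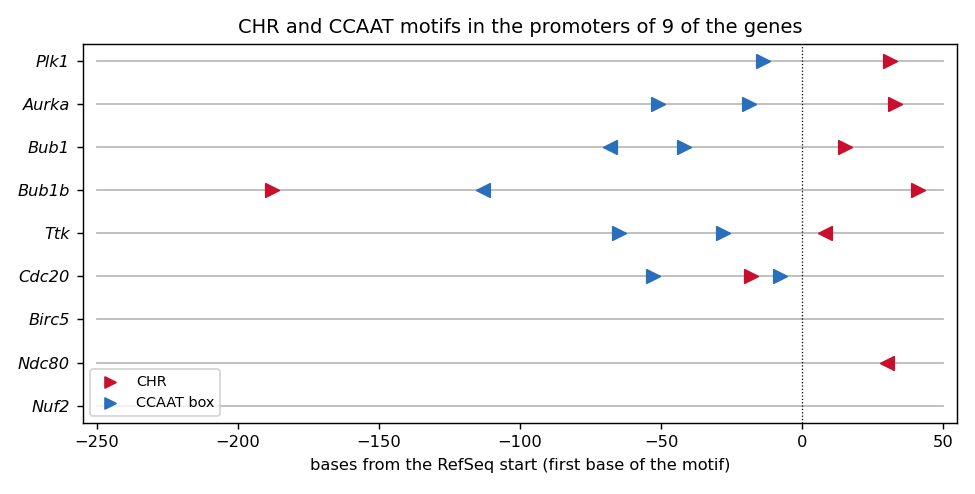
Position of CHR (red) and CCAAT (blue) letters in the promoters of 9 genes, in bases from the RefSeq start. Arrows pointing right are on the strand of the gene and arrows pointing left on the opposite strand; 7 promoters hold a CHR, and those of Birc5 and Nuf2 show neither motif.

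Values are normalised read counts, scaled by the authors. Sin3b itself was at 1522 (WT 1) and 1825 (WT 2) against 755.4 (Sin3B KO 1) and 646.5 (Sin3B KO 2), so both libraries labelled KO were lower and still held reads of the gene. Every value was a whole multiple of 1 step per library. If a step is 1 read, which the table does not state, the libraries held between 9950979 and 13700630 reads in the listed genes and each of the 10 genes between 123 and 1180 in a library, which would give a counting error of 9.02% (coefficient of variation) for the lowest, Cdc20 in WT 1. The fit was limma on log2(value + 1), on which scale all fold changes below are given, Sin3B KO minus WT, with Benjamini-Hochberg adjustment over the 9244 genes and a threshold of 0.05. At that threshold 0% of all genes passed in limma, and so 0 of the 10. The unadjusted p was under 0.05 for 824 genes (8.91%).

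Of the 10 genes, 9 had a higher mean log2 level in the KO libraries and Ndc80 a lower one. The median log2 fold change was 0.58, beside 0.03 over all genes tested, of which 53.4% were above 0. In 4 genes, Aurkb, Bub1b, Cdc20 and Nuf2, both KO libraries lay above both WT libraries, and over all genes 24.7% did so. In Ndc80 both KO libraries lay below both WT libraries, where the share over all genes was 19.4%. At an unadjusted p under 0.05 there were 2 of the 10, Aurkb and Bub1b, both higher, where 4.97% of all genes were under that p and higher.

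**Figure D2:**
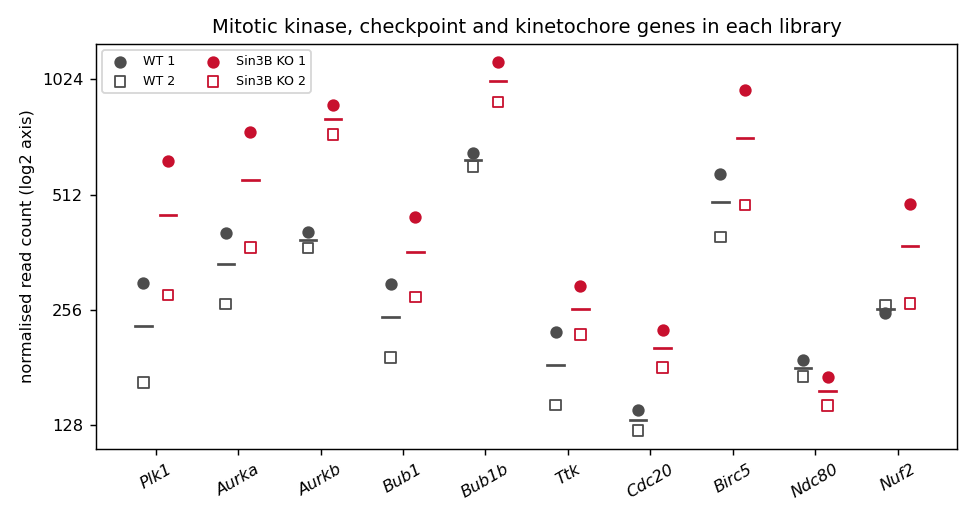
Normalised read count of each gene (log2 axis) in WT 1 and 2 (grey) and Sin3B KO 1 and 2 (red), filled circles for libraries numbered 1 and open squares for those numbered 2, with bars at the group means. Aurkb, Bub1b and Cdc20 show groups that stand apart, while in Plk1, Aurka, Bub1, Ttk and Birc5 the value of Sin3B KO 2 lies below that of WT 1.

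Among the kinases, Aurkb had the largest difference of the 10. Aurkb, the kinase of the passenger complex, was at 408.2 (WT 1) and 370.9 (WT 2) against 875.6 (Sin3B KO 1) and 735.7 (Sin3B KO 2). The groups did not overlap, and the lower KO value was well above the higher WT value. Its log2 fold change was 1.04 (SE 0.25, 95% interval 0.48 to 1.61, n = 2 per group), a 2.06-fold difference, and it ranked as number 28 of the 9244 genes by p. It did not pass (limma, Benjamini-Hochberg adjusted p = 0.548).

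Aurka, the kinase of the centrosomes and spindle poles, was at 407.0 (WT 1) and 265.1 (WT 2) against 746.8 (Sin3B KO 1) and 372.8 (Sin3B KO 2). The groups overlapped: Sin3B KO 1 was high and Sin3B KO 2 lay between the WT values. The log2 fold change was 0.68 (SE 0.39, limma, Benjamini-Hochberg adjusted p = 0.574).

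Plk1, which acts from mitotic entry to cytokinesis, was at 299.9 (WT 1) and 165.2 (WT 2) against 625.7 (Sin3B KO 1) and 280.0 (Sin3B KO 2). Its KO mean of 452.9 ± 244 (SD, n = 2) and WT mean of 232.5 ± 95.2 (SD, n = 2) differed by less than the spread within the KO. The log2 fold change was 0.91 (SE 0.46, 95% interval -0.13 to 1.95). Within each genotype the library numbered 1 was higher, by 1.82 times in WT and 2.23 times in the KO. Of the 10 genes Plk1 had the widest replicate gap in either genotype.

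The checkpoint kinases Bub1 and Ttk overlapped between groups. Bub1, which recruits checkpoint proteins to kinetochores, was at 298.7 (WT 1) and 191.9 (WT 2) against 447.9 (Sin3B KO 1) and 276.5 (Sin3B KO 2) (log2 fold change 0.55, SE 0.38). Ttk, the kinase that starts the checkpoint signal, was at 223.5 (WT 1) and 144.4 (WT 2) against 295.1 (Sin3B KO 1) and 220.3 (Sin3B KO 2) (log2 fold change 0.50, SE 0.40). In both genes Sin3B KO 1 was the highest library and WT 2 the lowest, and Sin3B KO 2 lay just below WT 1. Neither passed (limma, Benjamini-Hochberg adjusted p = 0.617 for Bub1 and 0.659 for Ttk).

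Of the proteins that act on the APC/C, both had groups that did not overlap. Bub1b, which encodes BubR1, a part of the complex that inhibits Cdc20, was at 657.9 (WT 1) and 606.3 (WT 2) against 1134 (Sin3B KO 1) and 893.6 (Sin3B KO 2). Its libraries agreed closely within WT (632.1 ± 36.5, SD, n = 2), and its log2 fold change was 0.67 (SE 0.23, 95% interval 0.14 to 1.20). The adjusted p was 0.548 (limma, Benjamini-Hochberg). Cdc20, the target of that inhibition, was at 140.2 (WT 1) and 123.6 (WT 2) against 225.9 (Sin3B KO 1) and 181.0 (Sin3B KO 2). Its log2 fold change was 0.62 (SE 0.43), a 1.53-fold difference at the lowest mean count of the 10 genes (limma, Benjamini-Hochberg adjusted p = 0.623).

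Birc5, which encodes survivin, the subunit that brings Aurora B to centromeres, was at 580.3 (WT 1) and 396.6 (WT 2) against 961.1 (Sin3B KO 1) and 480.7 (Sin3B KO 2). Sin3B KO 1 was high and Sin3B KO 2 lay between the WT libraries, as for Aurka. The log2 fold change was 0.50 (SE 0.36, limma, Benjamini-Hochberg adjusted p = 0.632).

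The NDC80 complex subunits differed in direction. Ndc80, whose protein binds the microtubule, was at 189.3 (WT 1) and 171.11 (WT 2) against 171.08 (Sin3B KO 1) and 143.6 (Sin3B KO 2), a log2 fold change of -0.20 (SE 0.42, 95% interval -1.15 to 0.75). WT 2 and Sin3B KO 1 were nearly equal, so the groups were separated by a fraction of a normalised count. Nuf2, its partner in the same complex, was at 250.8 (WT 1) and 262.1 (WT 2) against 483.4 (Sin3B KO 1) and 265.7 (Sin3B KO 2) (log2 fold change 0.48, SE 0.36). Its groups were separate by a few counts, and Sin3B KO 1 alone was high. The difference between these subunits was not tested.

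**Figure D3:**
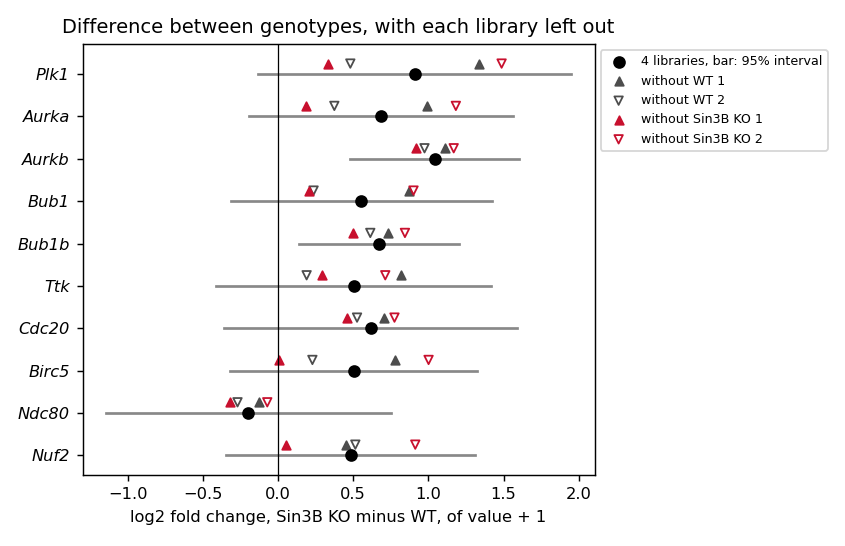
Log2 fold change of value + 1, Sin3B KO minus WT, for each gene with 4 libraries (black, bar: 95% interval of limma) and with 1 library left out (triangles). The intervals of Aurkb and Bub1b lie above 0, those of the other 8 genes include 0, and Aurkb moved least in proportion when a library was left out.

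In the authors' deposited table the same 9 genes had log2 fold changes above 0, smaller than those above. Aurkb was at 0.80 in the authors' deposited table with an adjusted p of 0.0877, the only one of the 10 under 0.1, where 0.664% of the table was. A p under 0.05 was given in the authors' deposited table for 3 of the 10, Aurkb (5.3e-04), Bub1b (0.0148) and Plk1 (0.0486), where 9.5% of the table did. These values come from the same 4 libraries and are no separate support.

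Per kilobase of annotated exon, WT levels of the 10 genes ran from 27.8 ± 1.98 (SD, n = 2) for Ndc80 to 148 ± 8.53 for Bub1b in normalised reads per kilobase. In WT the order below Bub1b was Birc5 (144 ± 38.2), Aurka (133 ± 39.7), Aurkb (132 ± 8.95), Plk1 (106 ± 43.3), Cdc20 (70.6 ± 6.29), Bub1 (56.3 ± 17.4), Nuf2 (40.4 ± 1.26) and Ttk (37.4 ± 11.4) per kilobase. The libraries of Birc5, Aurka, Aurkb and Plk1 overlapped each other in level, as did those of Cdc20 and Bub1, and of Nuf2 and Ttk. Both WT libraries of Bub1b (153.9 and 141.8) lay between the WT libraries of Birc5 and between those of Aurka, and above those of Aurkb and Plk1. These levels lay between the 4.58th and the 48.6th percentile of the 9000 genes with an exon length, in a table whose lowest mean over the libraries was 120.2. In the KO libraries Aurkb was first in the order per kilobase (273 ± 33.6), ahead of Bub1b (237 ± 39.8), Aurka (221 ± 104), Birc5 (212 ± 99.9) and Plk1 (206 ± 111). The KO libraries of these 5 genes overlapped, and Ndc80 was again the lowest per kilobase (24.2 ± 2.995).

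The libraries numbered 1 were higher for most of the 10 genes in either genotype. In 9 genes replicate 1 was above replicate 2 in both WT and KO, which held for 27.3% of all genes, and the exception was Nuf2 in WT. The median log2 difference between the libraries was 0.36 in WT and 0.56 in the KO. Summed over the 10 genes, the level was 3456 in WT 1, 2697 in WT 2, 5967 in Sin3B KO 1 and 3850 in Sin3B KO 2. Sin3B KO 1 was the highest library for 9 genes, all but Ndc80, and WT 2 the lowest for 8 genes, all but Ndc80 and Nuf2.

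Without Sin3B KO replicate 1, 9 genes remained above 0 and the median log2 fold change was 0.25, while Birc5 was at 0.003 and Nuf2 at 0.05. Without WT replicate 2 the median was 0.43 and Plk1 was at 0.48. Without WT replicate 1 the median was 0.80, with Plk1 at 1.34, and without Sin3B KO replicate 2 it was 0.91, with Plk1 at 1.49. Aurkb stayed between 0.92 and 1.17 and Bub1b between 0.50 and 0.84 over these fits, in none of which any of the 10 passed.

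**Figure D4:**
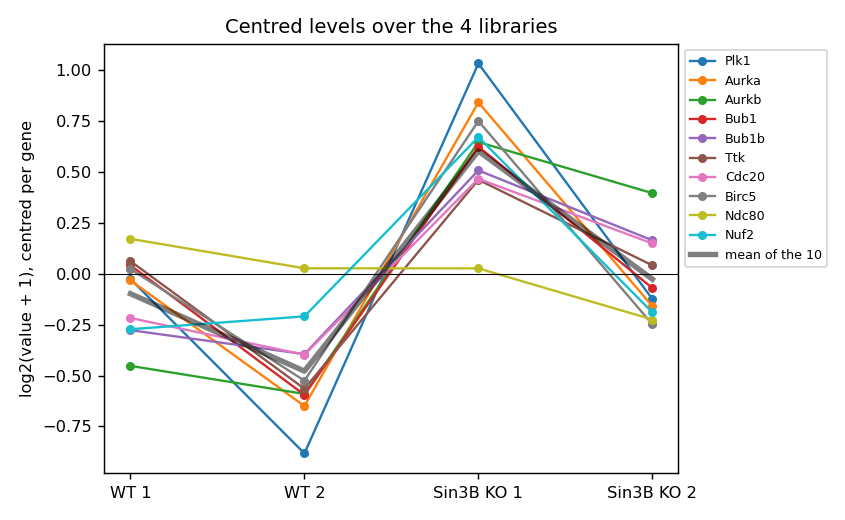
Log2(value + 1) of each gene in the 4 libraries, centred on the mean of that gene, with the mean of the 10 genes in thick grey. Lines join values of 1 gene and carry no order; Sin3B KO 1 is the highest point for all but Ndc80, and Aurkb is the gene with the highest value in Sin3B KO 2.

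Markers of other cells also differed between the numbered libraries. Of 14 measured neutrophil and monocyte genes, out of 15 listed, 12 were higher in replicate 1 of both genotypes, and their summed level was 80340 (WT 1) and 16277 (WT 2) against 55392 (Sin3B KO 1) and 26000 (Sin3B KO 2). All 7 measured B lineage genes, out of 12 listed, were higher in replicate 1 of both genotypes (3959 and 1563 in WT, 5041 and 2120 in the KO, summed). For 11 measured erythroid genes, out of 15 listed, the sum was 11130 (WT 1) and 6765 (WT 2) against 24212 (Sin3B KO 1) and 9205 (Sin3B KO 2), with Slc4a1, a red cell membrane protein, at 0 in WT 2. Between genotypes 11 of these 11 erythroid genes had log2 fold changes above 0, with a median of 0.78, where 53.4% of all genes were above 0. In 3 of the 11 (27.3%, beside 24.7% of all genes) both KO libraries were above both WT. The log2 fold change of Slc4a1, 2.51, rests on the 0 in WT 2, and its KO mean of 399.8 was below its WT mean of 596.9. Gata1, the erythroid transcription factor, was at 1004 (WT 1) and 1063 (WT 2) against 3144 (Sin3B KO 1) and 1842 (Sin3B KO 2). The sum of the 10 genes was highest in Sin3B KO 1. So were the erythroid, B lineage, multipotent progenitor, T and NK, and macrophage and dendritic sums. The macrophage and dendritic sum held 5 measured genes out of 10 listed, and the T and NK sum only 2 out of 10. Of these 2, Gata3 was higher in Sin3B KO 2 (1986) than in Sin3B KO 1 (1364). The neutrophil and monocyte sum was highest in WT 1, and the HSC identity and megakaryocyte sums in Sin3B KO 2. Between Sin3B KO 2 and WT 1 the erythroid sum was lower in the KO library, where the sum of the 10 genes was higher (3850 against 3456). That higher sum came from Aurkb, Bub1b, Cdc20 and Nuf2. Plk1, Aurka, Bub1, Ttk, Birc5 and Ndc80 were each lower in Sin3B KO 2 than in WT 1. Flt3, which encodes the Flk2 that the sort excludes, was higher in replicate 1 of both genotypes, at 1170 (WT 1) and 371.9 (WT 2) against 830.4 (Sin3B KO 1) and 354.0 (Sin3B KO 2). Of 9 multipotent progenitor genes 7 were higher in replicate 1 of both genotypes, and of 15 HSC identity genes 0. Kit, a receptor of the sort gate, was at 22329 and 17785 in WT against 20868 and 19845 in the KO. The part of these cells in the levels of the mitotic genes was not tested.

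General markers of cycling cells did not all go the way of the 10 genes. Of 8 such genes 5 were above 0 (62.5%, beside 53.4% of all genes), with a median log2 fold change of 0.31. In 2 (25%, beside 24.7% of all genes) both KO libraries were above both WT. In 1, Pcna, both were below (12.5%, beside 19.4% of all genes). Ccnb2, a mitotic cyclin, had groups that did not overlap, at 527.9 (WT 1) and 387.7 (WT 2) against 1160 (Sin3B KO 1) and 671.5 (Sin3B KO 2). Cdk1, the kinase that drives mitosis, was likewise separate, at 535.9 and 551.9 in WT against 1008 and 746.4 in the KO. Mki67, a marker of proliferating cells, was at 2260 (WT 1) and 1271 (WT 2) against 2325 (Sin3B KO 1) and 1195 (Sin3B KO 2), with no difference between the groups beyond their spread. Mcm2, a subunit of the replicative helicase, had a log2 fold change of 0.32 and Top2a, a topoisomerase, of 0.30, both with overlapping groups. Ccna2, the A-type cyclin, was at 148.2 and 134.5 in WT against 135.5 and 63.3 in the KO.

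The wider set of spindle, kinetochore and APC/C genes was described from 8 lists, with 98 genes that had library values. Of these 71 (72.4%) were above 0, beside 53.4% of all genes. In 36 (36.7%) both KO libraries were above both WT, beside 24.7% of all genes, and in 9 both were below, beside 19.4%. At an unadjusted p under 0.05, 6 were higher (6.12%, beside 4.97% of all genes) and 1 lower, and 0 passed (limma, Benjamini-Hochberg). The median log2 fold change was 0.28 over the 98 genes, beside 0.58 over the 10 and 0.03 over all genes. It was 0.11 without Sin3B KO replicate 1.

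Outer kinetochore genes were above 0 in 15 of 15 (13 with values scaled to the library totals), with a median log2 fold change of 0.38 and 6 (40.0%, beside 24.7% of all genes) with KO libraries above WT. Without Sin3B KO replicate 1 the median was 0.15, with 11 above 0, and without WT replicate 2 it was 0.23, with 12 above 0. Pmf1, of the MIS12 complex, was at 905.3 and 1101 in WT against 1684 and 1253 in the KO, and Mis12 at 1149 and 821.9 in WT against 1419 and 1237 in the KO. Ska3, which helps the NDC80 complex hold microtubules, was at 157.3 and 177.0 in WT against 363.3 and 247.9 in the KO (log2 difference 0.84). Inner kinetochore genes, of the layer on centromeric chromatin, were above 0 in 14 of 20, with a median of 0.28. Cenpi was at 282.8 and 161.2 in WT against 471.9 and 300.5 in the KO, Cenpn had a log2 fold change of 0.70, and the abundant Stra13 and Cenpt were at 0.27 and 0.09. The median of this list was 0.12 without Sin3B KO replicate 1.

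Other spindle checkpoint genes were above 0 in 9 of 11, with a median log2 fold change of 0.28 and 5 (45.5%, beside 24.7% of all genes) with KO libraries above WT. The median was 0.13 without WT replicate 1 and 0.42 when Sin3B KO replicate 2 was left out. Bub3, the partner of Bub1 and BubR1, was at 1868 (WT 1) and 2107 (WT 2) against 2660 (Sin3B KO 1) and 2568 (Sin3B KO 2) (log2 fold change 0.40). Zwilch, a part of the complex that loads checkpoint proteins, had a log2 fold change of 0.61, Mad1l1 of 0.45, and the abundant nuclear pore gene Tpr of -0.06. Among partners of the passenger complex 5 of 7 were above 0, with a median of 0.10. Cdca8, which encodes borealin, a direct partner of survivin and Aurora B, was at 770.7 and 843.7 in WT against 1655 and 1174 in the KO, with a log2 fold change of 0.79. Single libraries moved the median of this list, to 0.59 without WT replicate 1, to 0.04 when Sin3B KO replicate 1 was left out and to 0.53 when Sin3B KO replicate 2 was. Sgol1, the protector of centromeric cohesion, had a log2 fold change of 0.70 with overlapping groups, and Rcc2 one of -0.11.

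Other mitotic kinases went both ways, with 8 of 13 above 0, and the median log2 fold change was 0.45. Nek2, the kinase of centrosome separation, was at 180.1 and 94.95 in WT against 324.9 and 198.9 in the KO (log2 difference 0.95), and Melk had a log2 fold change of 0.84. Both KO libraries were above both WT libraries in 6 of these 13 genes (46.2%, beside 24.7% of all genes). They were below both WT libraries in 3 of the 13 (23.1%, beside 19.4% of all genes). The median of the list was 0.14 without WT replicate 2, 0.25 when Sin3B KO replicate 1 was left out and -0.21 among its genes whose mean over the libraries reached 500. One of the 3 was Slk, at 1520 and 1601 in WT against 1303 and 1337 in the KO, and Vrk1, which phosphorylates chromatin proteins, was higher at 0.46. Wee1, the inhibitor of Cdk1, was chosen after its values were seen: it was at 814.1 and 894.1 in WT against 473.8 and 492.3 in the KO, a log2 fold change of -0.82, and was the 1 gene of the 98 that was lower at an unadjusted p under 0.05.

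The APC/C subunits and its E2 enzyme had 9 of 16 above 0, and the median log2 fold change was 0.06, or -0.03 with values scaled to the library totals. The subunit Cdc23 was at 1732 and 1723 in WT against 2529 and 2720 in the KO (log2 difference 0.60), with a spread within groups far smaller than the difference. Anapc5 and Anapc1, the most abundant, were at -0.13 and 0.10. Ube2c, the E2 enzyme of the APC/C, was at 381.9 (WT 1) and 77.1 (WT 2) against 490.2 (Sin3B KO 1) and 148.9 (Sin3B KO 2), lower in both libraries numbered 2. Of the APC/C substrates and inhibitors 8 of 9 were above 0 (median 0.39), with Pttg1, which encodes securin, at 0.26, Fbxo5, which encodes an APC/C inhibitor, at 0.39, Ccnb1 at 0.63 and Cdc25c at 0.62. Without WT replicate 2, 5 of these 9 were above 0, and the median was 0.18 when Sin3B KO replicate 1 was left out and 0.59 when Sin3B KO replicate 2 was.

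The list of Aurora and Plk1 activators, which also holds transcription factors of mitotic genes, had 3 of 7 above 0, and the median log2 fold change was -0.19, or 0.11 without WT replicate 1. Bora, the cofactor with which Aurora A activates Plk1, was at 582.6 and 445.1 in WT against 883.3 and 812.4 in the KO (log2 difference 0.73). Foxm1, the transcription factor of mitotic genes, was at 108.3 and 250.2 in WT against 75.0 and 98.1 in the KO (log2 difference -0.93), so that both KO libraries were below both WT libraries. Cep192, the centrosomal scaffold of Aurora A and Plk1, was at -0.19.

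**Figure D5:**
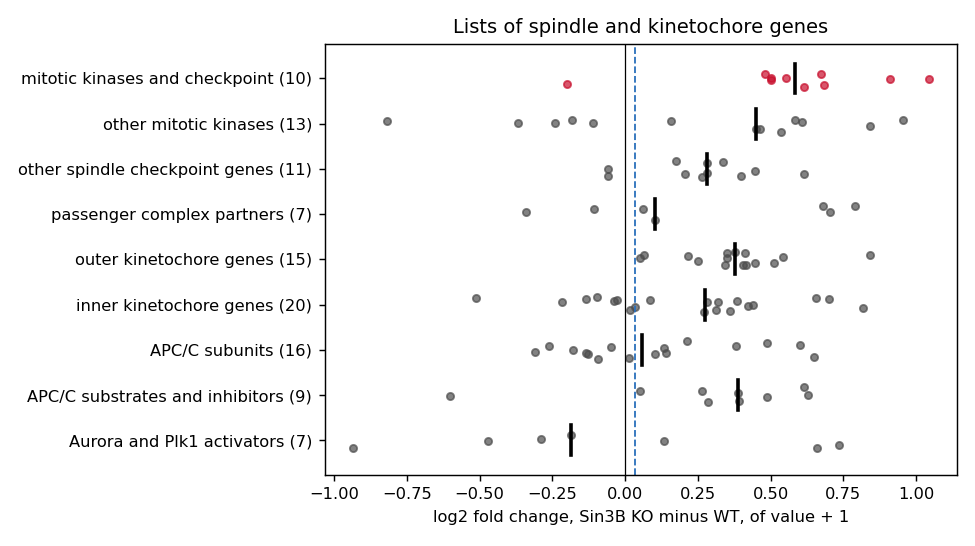
Log2 fold change of value + 1, Sin3B KO minus WT, of each gene with library values in 9 lists, with the number of genes in brackets, a black bar at the median of the list and a dashed line at the median of all genes, 0.03. The 10 genes (red) lie at 0.48 or above except Ndc80. The 15 outer kinetochore genes, a list without Ndc80 and Nuf2, lie above 0, of which 13 do so with values scaled to the library totals.

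The genes whose centred log2 levels over the 4 libraries lay closest to the mean of the 10, by Euclidean distance, were Lrrc28 (0.081), Orc6 (0.0886), Atp6v0a2 (0.0948), Tmem67 (0.0969) and Gtf2f2 (0.108), where the median over all genes was 0.876. Orc6, a subunit of the origin recognition complex of DNA replication, was at 1044 (WT 1) and 780.4 (WT 2) against 1630 (Sin3B KO 1) and 1141 (Sin3B KO 2). Of the 10 genes themselves Bub1 was closest (0.188) and Ndc80 farthest (0.836). The likeness rests on 4 libraries and is a description.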

How the data were processed

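Per the submitters' processing notes, Bowtie, DESeq and the build mm9 were used; versions, the counter and the gene models are not stated. The deposited library columns hold a signal taken to be reads per gene divided by the authors' size factor: every value is a whole multiple of a step per library (within 0.01 of a step), and that a step is 1 read is not stated. The deposited table also gives the authors' comparison: a log2 fold change, its error, a test score and p-values. Genes listed without library values (552) were left out. limma 3.58.1 in R 4.3.3 was run on log2(value + 1) with a trended prior (6.62 prior and 2 residual degrees of freedom), keeping genes that reached 1 in 2 libraries, which were all 9244. The fit was checked on simulated data for the size of the recovered fold changes only. The simulated libraries shared no deviations, and no condition was set on the number of genes called. Exon lengths are the union of GENCODE M21 exons matched by Ensembl identifier, which can exceed the expressed transcript.

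The 10 genes and the lists were chosen with earlier results of these data known. Named from each list were its 2 most abundant genes and the 2 with the largest difference, since none passed. Marker lists are given by their sums. Wee1, Mki67, Ccna2 and Pcna fall outside that rule and were chosen after their values were seen. Flt3, Kit, Gata1, Gata3 and Slc4a1 meet the rule in their marker lists, but which of the genes that meet it to print was chosen after their values were seen. Alternatives were pseudocounts of 0.1 and 5, 2 other scalings, filters, an untrended prior, a replicate block and each library left out.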

Additional observations from a re-analysis of the deposited data

How the results depend on the processing

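The number of genes past the threshold was 0 in limma with 4 libraries. It was 27 with the replicate number as a block and between 0 and 1 with each library left out. Under the block Sin3b passed (log2 fold change -1.25, limma, Benjamini-Hochberg adjusted p = 0.0282) and 0 of the 10 mitotic genes did, with Aurkb at an adjusted p of 0.0776. The deviations of same-numbered libraries had a correlation of 0.465 over genes, which hints at something shared. In both genotypes the titles number the libraries 1 and 2, and the deposited column names number them 1 and 3. With 2 pairs and no statement of what the number marks, it was not taken as a pairing. The 10 genes kept their direction in every alternative run. The adjusted p of Aurkb ran from 0.0776 to 0.997 over these (limma, Benjamini-Hochberg). The median log2 fold change of the 10 was 0.50 with total scaling, where 3 instead of 4 genes had both KO libraries above both WT. Among genes whose mean reached 500, 3 of the 10 were left. The 2 planned count-model tests were not run: the deposited values are normalised, and they are whole multiples of a step per library, but the table lists no value of 1 or 2 steps, and whether a step is 1 read was not settled. Exons of Plk1 overlap the opposite-strand gene model Gm44985 by 156 bases and those of Cdc20 the gene Elovl1 by 53, and whether counting used strand is not given in the sources used here. With 2 libraries per group the median half-width of a 95% interval was 0.60 on the log2 scale.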
